A study of Mus musculus with 6 samples.

Results

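The S100 proteins are small calcium-binding proteins with paired EF-hand motifs, most of which work as dimers, and squamous epithelium makes many of them. Inside the cell they bind targets such as annexins and proteins of the cytoskeleton. When they are released from stressed or damaged epithelium, several of them act as alarmins, signals that alert and attract immune cells. Lipocalin 2 and serum amyloid A3 are not S100 proteins but are secreted by inflamed epithelium in the same settings. The genes described here are *S100a4*, *S100a6*, *S100a8*, *S100a9*, *S100a10*, *S100a11*, *S100a14*, *S100a16*, *Lcn2* and *Saa3*, chosen as a list of 10 Ensembl gene identifiers without use of their values. Of these, 9 had a row among the 17204 genes of the expression table, 7 of them S100 genes, and the identifier of *S100a11*, ENSMUSG00000027907, had none and was dropped. The symbols come with that list, since the table itself gives identifiers only.

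The cells were a mouse skin squamous cell carcinoma (SCC) model. Tumors were induced chemically in FVB mice of genotype K14CreER FAKflox/flox, in which the keratin 14 promoter drives a tamoxifen-inducible Cre recombinase. Cells grown from them were treated with 4-hydroxytamoxifen to delete the gene for focal adhesion kinase (FAK), an adhesion-linked tyrosine kinase. A single FAK-null clone gave the SCC FAK-/- line, and retroviral transduction of these cells with wild-type FAK gave the SCC FAK-WT line. Both lines therefore share the deletion, and they differ in the transduction as well as in FAK. Per the labels, lines re-expressing FAK were also kept under 0.25 mg/ml hygromycin, so FAK and selection cannot be told apart. RNA from 3 samples of each line was hybridized to Affymetrix GeneChip mouse arrays after growth in culture, each sample on its own array. The sample titles number the replicates and do not say whether they were separate cultures. The SDs and p-values below therefore measure spread among samples of each line, not among independent clones or transductions. The comparison asks how the transcripts of the carcinoma cells differed between the line that re-expressed FAK and the line without it. Values are log2 expression after Robust Multi-array Average (RMA) normalization, and each difference is given as SCC FAK-WT minus SCC FAK-/-. The median over all genes was 5.90 to 5.97 on the 6 arrays, whose small number limits precision. The markers of squamous cells and of other cell types, and the gene for FAK itself, could not be paired with identifiers and were not analysed here, so the labelled cell type was not checked.

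Of the 9 genes, only *S100a16* differed between the cell lines at an adjusted p under 0.05 (limma, two-sided, Benjamini-Hochberg adjustment over all 17204 genes), and it was lower in SCC FAK-WT cells. Thus 1 of 9 genes was called lower and 0 of 9 higher. Among all genes, 330 were called (1.92%), of which 189 were lower (1.10%) and 141 higher (0.820%). At an unadjusted p under 0.05, limma also gave 0 of the 9 genes higher and 1 lower, against 7.76% and 7.74% of all genes. With trended and robust variances 1 of the 9, *S100a10*, was higher at this limit, against 8.48% of all genes. At a p under 0.01, the study's threshold, taken here as unadjusted, the count was again 1 of 9, against 6.85% of all genes. The arrays of the 2 lines did not overlap in 2 of the 9 genes, *S100a16* and *S100a10*, against 21.5% of all genes. The median log2 fold change of the 9 genes was 0.01, and that of all genes was 0.02. Regardless of direction, the median size of the change was 0.06 log2 units in the 9 genes and 0.14 in all genes. With 1 gene called, the counts describe a single gene and not the group.

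**Figure D1:**
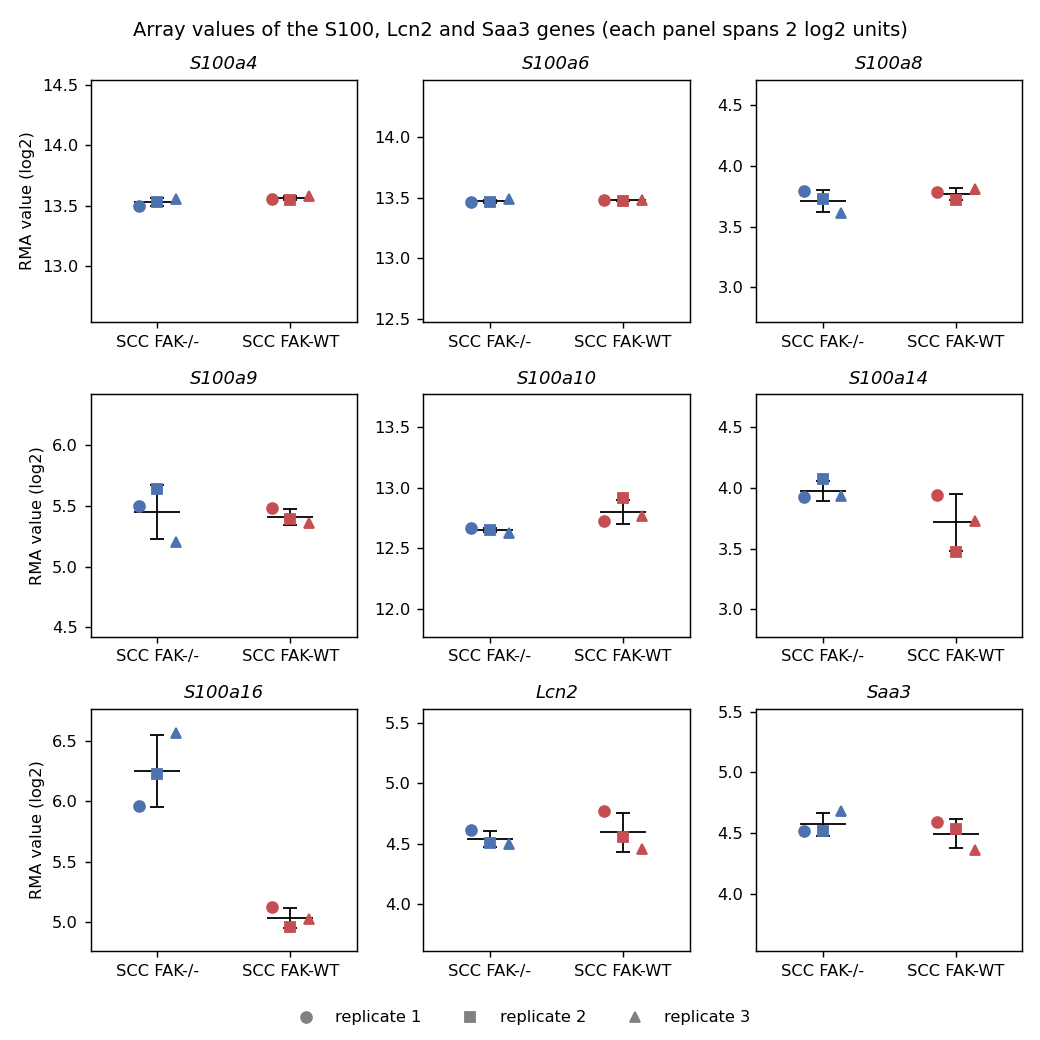
The RMA value (log2) of each gene is plotted on the vertical axis for the 3 SCC FAK-/- arrays (blue) and the 3 SCC FAK-WT arrays (red), with the replicate number shown by the symbol, the mean as a horizontal line and the SD as error bars. All panels span the same number of log2 units; the arrays of the 2 lines lie apart by 0.83 in *S100a16* and by 0.05 in *S100a10*, and they overlap in the other 7 genes.

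*S100a16* (ENSMUSG00000074457) encodes a widely expressed EF-hand protein of epithelial tissues. The SCC FAK-WT arrays read 5.13, 4.96 and 5.03, whereas the SCC FAK-/- arrays read 5.96, 6.22 and 6.56. Every SCC FAK-WT array was below every SCC FAK-/- array, and the gap between the nearest arrays, 0.83 log2 units, exceeded the SD of either line. The mean was 5.04 ± 0.083 (SD, n = 3) in SCC FAK-WT and 6.25 ± 0.30 (SD, n = 3) in SCC FAK-/- cells. The log2 fold change was -1.21 (0.16 standard error, 95% interval -1.59 to -0.83, adjusted p = 0.015 in limma). On the linear scale the SCC FAK-/- level was 2.31-fold that of SCC FAK-WT cells (95% interval 1.78 to 3.0). Whether fewer cells made the transcript or each cell made less of it cannot be told apart in bulk RNA. Among the 189 genes called lower, 65 had a larger decrease. In an exact permutation test over the arrays the two-sided p was 0.1, the smallest that 3 arrays against 3 can give.

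The 2 lines were not equally tight in *S100a16*. The SCC FAK-WT arrays lay within 0.09 of their mean, whereas SCC FAK-/- replicates 1 and 3 deviated from theirs by -0.29 and 0.31. With 1 array left out the call was lost in 3 of 6 fits, while the change hardly moved in these: -1.22 (adjusted p 0.0672, limma) without SCC FAK-/- replicate 2, -1.17 (0.0558) without SCC FAK-WT replicate 2 and -1.20 (0.0519) without SCC FAK-WT replicate 3. It moved most in fits that kept the call, to -1.05 without SCC FAK-/- replicate 3 and to -1.35 without SCC FAK-/- replicate 1. Leaving out any array also cut the calls over all genes from 330 to between 108 and 188. With an ordinary linear model per gene, which takes no variance from other genes, the adjusted p was 0.126. With array spread added to the model, a step chosen after seeing the data, the log2 fold change was -1.22 and the adjusted p (limma) 0.0408.

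*S100a14* (ENSMUSG00000042306), which encodes an epithelial S100 protein, is the neighbour of *S100a16* in the mouse S100 gene cluster, with no coding gene between them in the RefSeq annotation of GRCm38.p6. It read 3.94, 3.48 and 3.73 in the SCC FAK-WT samples, compared with 3.92, 4.07 and 3.94 in the SCC FAK-/- samples. SCC FAK-WT replicate 1 lay among the SCC FAK-/- arrays and the other two SCC FAK-WT arrays lay below them. The log2 difference was -0.26 (0.14 standard error, 95% interval -0.59 to 0.06, adjusted p = 0.438 in limma). This was the second largest difference of the 9 genes, and it did not pass the test. Its size varied with the array left out. Without SCC FAK-WT replicate 2 the difference was -0.14, and without SCC FAK-WT replicate 1 it was -0.37 (unadjusted p 0.0281, adjusted p 0.263 in limma). Whether the changes of *S100a14* and *S100a16* differ from each other was not tested.

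*S100a10* (ENSMUSG00000041959) encodes p11, the S100 protein that no longer binds calcium and pairs with annexin A2 at the plasma membrane. It read 12.72, 12.91 and 12.77 in the SCC FAK-WT samples, compared with 12.67, 12.65 and 12.63 in the SCC FAK-/- samples. The groups did not overlap, but the gap between the nearest arrays was only 0.05 log2 units. The log2 fold change was 0.15 (0.098 standard error, 95% interval -0.08 to 0.38, adjusted p = 0.543 in limma). SCC FAK-WT replicate 2 was the highest array, and without it the log2 fold change was 0.10. Trended and robust variances, which allow for the smaller spread of bright genes, gave an unadjusted p of 0.0193 and an adjusted p of 0.183. Under cyclic loess the log2 fold change was 0.093 (unadjusted p 0.338, limma), and with the replicate block the unadjusted p (limma) was 0.246. The neighbour of *S100a10* in the cluster is *S100a11*, the gene without a row in the table.

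*S100a4* (ENSMUSG00000001020), also called metastasin and linked to cell motility, read 13.56, 13.55 and 13.58 in the SCC FAK-WT samples, compared with 13.50, 13.53 and 13.56 in the SCC FAK-/- samples. *S100a6* (ENSMUSG00000001025), or calcyclin, read 13.48, 13.48 and 13.48 in the SCC FAK-WT samples, compared with 13.46, 13.46 and 13.49 in the SCC FAK-/- samples. The lines overlapped in both genes. The log2 difference was 0.03 for *S100a4* (0.09 standard error, 95% interval -0.18 to 0.24, adjusted p = 0.917 in limma) and 0.01 for *S100a6* (0.089 standard error, 95% interval -0.20 to 0.22, adjusted p = 0.977 in limma). With an array left out, these differences ran from 0.016 to 0.046 for *S100a4* and from 0.0053 to 0.018 for *S100a6*.

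Both genes sat near the upper end of the arrays' scale, where the highest value of any gene on any array was 13.76. Only 2 genes of the table had a higher mean value than *S100a4* and 4 a higher mean than *S100a6*, which gives their place on the signal scale and does not rank amounts of RNA. The 6 arrays spanned 0.08 log2 units in *S100a4* and 0.03 in *S100a6*. The 100 genes with the highest mean, from 12.18 upward, include *S100a4*, *S100a6* and *S100a10*. Their median change, regardless of direction, was 0.08 log2 units against 0.14 in all genes, and their median residual SD was 0.050 against 0.168. The largest change among the 100 was 0.56, and 1 of them was called. Whether probe signals were saturated at this level was not tested, and the differences of *S100a4* and *S100a6* describe the array signal. For these genes limma also used a larger SD than their own, 0.11 in place of 0.025 for *S100a4* and 0.108 in place of 0.0103 for *S100a6*, since it draws each variance toward that of the other genes.

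*S100a8* (ENSMUSG00000056054) and *S100a9* (ENSMUSG00000056071) encode the partners of calprotectin, an antimicrobial heterodimer abundant in neutrophils and induced in keratinocytes by injury and inflammation. *S100a8* read 3.78, 3.72 and 3.81 in the SCC FAK-WT samples, compared with 3.79, 3.73 and 3.61 in the SCC FAK-/- samples. *S100a9* read 5.48, 5.40 and 5.36 in the SCC FAK-WT samples, compared with 5.50, 5.64 and 5.20 in the SCC FAK-/- samples. The lines overlapped in both genes, and SCC FAK-/- replicate 3 was the lowest array in each. The log2 fold change was 0.06 for *S100a8* (0.099 standard error, 95% interval -0.17 to 0.29, adjusted p = 0.85 in limma) and -0.04 for *S100a9* (0.13 standard error, 95% interval -0.35 to 0.27, adjusted p = 0.936 in limma). *S100a9* had the larger spread, with an SD of 0.222 in SCC FAK-/- cells against 0.064 in SCC FAK-WT cells. SCC FAK-/- replicate 3 also had the widest overall distribution of its line. With array spread in the model, a fit chosen after seeing the data, the log2 fold change of *S100a9* was 0.0004 (adjusted p = 0.999 in limma). In the planned fits it was -0.16 without SCC FAK-/- replicate 3 and 0.057 without SCC FAK-/- replicate 2.

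*Lcn2* (ENSMUSG00000026822) encodes lipocalin 2, which withholds iron from bacteria by binding their siderophores. It read 4.77, 4.56 and 4.46 in the SCC FAK-WT samples, compared with 4.62, 4.51 and 4.50 in the SCC FAK-/- samples. The SCC FAK-WT arrays held both the highest and the lowest value. The log2 difference was 0.05 (0.11 standard error, 95% interval -0.22 to 0.32, adjusted p = 0.886 in limma). It was -0.032 without SCC FAK-WT replicate 1 and 0.12 without SCC FAK-WT replicate 3. *Saa3* (ENSMUSG00000040026) encodes serum amyloid A3, an acute-phase protein made outside the liver. It read 4.59, 4.53 and 4.36 in the SCC FAK-WT samples, compared with 4.52, 4.51 and 4.68 in the SCC FAK-/- samples. The lines overlapped, with a log2 fold change of -0.08 (0.11 standard error, 95% interval -0.33 to 0.18, adjusted p = 0.818 in limma). This became -0.011 without SCC FAK-WT replicate 3 and -0.12 without SCC FAK-WT replicate 1.

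The inducible alarmin genes *S100a8*, *S100a9*, *Lcn2* and *Saa3* thus gave no call in either direction. Their 95% intervals lie between -0.35 and 0.32 log2 units on the RMA scale, which can understate changes of dim genes. *S100a8*, with *S100a14*, lay in the third of the 10 level classes of equal size into which all genes were divided by mean value, and *Lcn2* and *Saa3* in the fourth. In these classes 0.581% and 1.28% of genes were called. *S100a9* and *S100a16* lay in the fifth class, where 1.57% of genes were called. Whether these genes were transcribed at a low level or their probes read background was not tested.

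**Figure D2:**
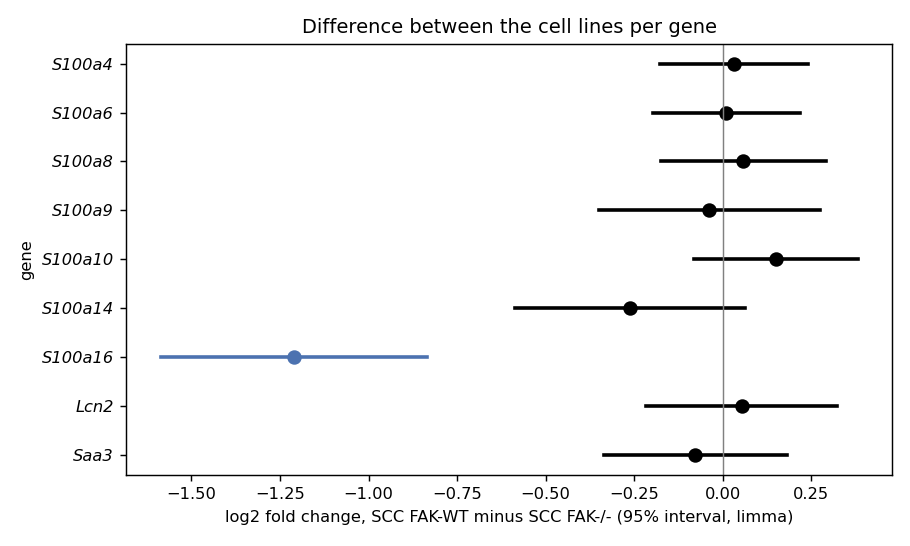
The log2 fold change of each gene (horizontal axis, SCC FAK-WT minus SCC FAK-/-) is drawn as a point with its 95% interval from limma as a line, in blue where the adjusted p is under 0.05. Only the interval of *S100a16*, -1.59 to -0.83, excludes 0; those of the other 8 genes lie between -0.59 and 0.38.

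The 7 listed S100 genes with a row all lie in the S100 cluster of mouse chromosome 3, and the order of the coding genes in the RefSeq annotation of GRCm38.p6 sets the pattern out along the cluster. From *S100a14*, with a log2 fold change of -0.26, the order runs to *S100a16* (-1.21), and after *S100a3* and *S100a2*, which are not analysed here, to *S100a4* (0.03). *S100a5* and *S100a7a*, also not analysed here, flank *S100a6* (0.01), and *S100a8* (0.06) and *S100a9* (-0.04) follow as direct neighbours. *S100a10* (0.15) lies at the far end beside *S100a11*. The called gene is 1 of these 7, and the nearest analysed genes on its sides, *S100a14* and *S100a4*, were not called.

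Because *S100a16* is the only gene with a called difference, the 250 bases before each of its annotated starts in RefSeq (GRCm38.p6, plus strand) are shown. They were searched on both strands for the TATA box (TATAAA), an AP-1-like pattern (TGANTCA, with any middle base where the AP-1 consensus has C or G) and the TEAD site (GGAATG), which do not overlap here, and matches are in capitals. The windows lie at chr3:90537004-90537253 and chr3:90540896-90541145, in this order:
S100a16 start 1: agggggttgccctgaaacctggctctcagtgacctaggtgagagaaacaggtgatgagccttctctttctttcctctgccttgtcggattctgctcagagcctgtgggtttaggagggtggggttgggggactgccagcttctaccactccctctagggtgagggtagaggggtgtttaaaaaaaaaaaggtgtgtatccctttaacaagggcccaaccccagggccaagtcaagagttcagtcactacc
S100a16 start 2: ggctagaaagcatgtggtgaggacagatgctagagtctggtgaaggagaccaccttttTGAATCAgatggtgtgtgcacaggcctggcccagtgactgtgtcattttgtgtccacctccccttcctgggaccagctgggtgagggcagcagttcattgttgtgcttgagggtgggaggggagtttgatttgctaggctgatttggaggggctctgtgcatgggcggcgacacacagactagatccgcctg
The first window held none of the 3 motifs and the second held 1 AP-1-like match, TGAATCA, 192 bases before the start, which is not the strict AP-1 site. Of 32851 such windows over all RefSeq genes in the table used, 6.75% held an AP-1-like match (4.46% the strict site), 12.4% a TATA box and 12.6% a TEAD match. The windows contained 1 and 3 CpG dinucleotides, against a median of 6 over all windows. Of the other genes, 6 had a window: *S100a4* and *S100a8* each held a TATA box, 31 and 30 bases before the start, and none of the 6 held an AP-1-like or TEAD match. A match of letters does not show that a factor binds, and its absence is limited to these windows.

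The genes whose pattern over the 6 arrays was closest to that of *S100a16*, by the Euclidean distance of values centered on each gene's mean, were ENSMUSG00000034161 and ENSMUSG00000055963, at distances of 0.24 and 0.247. Neither identifier was paired with a symbol. Since they were picked for this likeness, a similar difference and a low p follow from the choice and are no further evidence. The first averaged 8.05 ± 0.15 (SD, n = 3) with FAK and 9.32 ± 0.35 (SD, n = 3) without it, and differed by -1.27 log2 units (0.19 standard error, adjusted p = 0.0238 in limma). The second averaged 3.997 ± 0.14 (SD, n = 3) with FAK and 5.36 ± 0.24 (SD, n = 3) without it, and differed by -1.36 log2 units (0.15 standard error, adjusted p = 0.00811 in limma).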

How the data were processed

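Expression was measured in 3 samples of each cell line, grouped by their titles (50 ng of total RNA each, amplified and biotin labelled). Per the study's methods and processing notes, the authors applied RMA (affy package) and gave 1 value per Ensembl gene identifier; the package version, the probe mapping and the genome build are not given in the sources used here. The deposited values were taken as log2 from their range. Models were fitted to all 17204 genes by lmFit and eBayes of limma 3.58.1 (R 4.3.3), cell line being the only term, and p-values were adjusted over all genes. The fit was also run on simulated data, with independent normal noise and changes of 1 log2 unit in either direction. Smaller changes and correlated noise were not simulated, so that run does not show how the fit treats them.

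The 10 genes were listed without their values, the further lists with earlier results of these data known, and the level classes, the 100 brightest genes and the motifs after the values were seen. Named were every listed gene with a row and the 3 genes most like the one with the largest change, of which 2 are printed. Further lists (other S100 genes, partners, receptors, other alarmins, inducing factors and cell type markers) were not run, since the RefSeq gene table held 0 of the 17204 identifiers. Alternatives were other variance moderation, scaling, array weights, a filter on dim genes, a replicate block, leaving out each array and other thresholds.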

Additional observations from a re-analysis of the deposited data

How the results depend on the processing

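*S100a16* stayed lower in SCC FAK-WT cells under all 15 alternative fits, from -1.35 to -1.05 on the log2 scale, and was called in 11 of them, with adjusted p (limma, or an ordinary linear model) from 0.0122 to 0.126. The count of genes called lower, 1 of 9, was 0 without moderation of the variances and at an adjusted p under 0.01, and 0 to 1 with an array left out. None of the genes with a value was called higher at an adjusted p under 0.05 in any alternative fit. With the replicate block *S100a16* was still called, at -1.21 and an adjusted p (limma) of 0.0478, and no call among the 9 genes changed. Deviations of same-numbered arrays correlated across genes at -0.0338 to 0.028. Whether same-numbered samples shared a culture or a processing day is not given in the titles and was not tested. Of the differences that did not pass the test, those of *S100a4* and *S100a6* changed sign under cyclic loess, to -0.0304 and -0.052. That of *S100a10* ran from 0.0926 to 0.1895 over all fits and was not called in any. That of *S100a9* became 0.0004 with the spread of each array as a covariate, an alternative chosen after seeing the data, and ran from -0.16 to 0.057 with an array left out. With an array left out, that of *Lcn2* ran from -0.032 to 0.12, that of *S100a8* from 0.0092 to 0.0999, that of *Saa3* from -0.1242 to -0.0108 and that of *S100a14* from -0.37 to -0.14. The cause was not tested. Over all genes, the 330 calls became 549 with trended and robust variances, 39 without moderation, 160 with the replicate block, 195 with the spread covariate, 85 with an adjusted p under 0.01 and 1179 with the same limit on the unadjusted p, and 108 to 188 with fewer arrays. The filter on dim genes removed *S100a8*, *S100a14*, *Lcn2* and *Saa3*, which have no value there. The lists that need further gene names were not run. Whether dim probes read background or bright ones were saturated was not tested.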
